A study of Rattus norvegicus with 9 samples.

Results

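The 10 genes described here encode rat enzymes that make, use or recycle glutathione: the transferases Gsta2, Gstm7 and Gstm1, the peroxidases Gpx1, Gpx2, Gpx3 and Gpx4, both subunits of glutamate-cysteine ligase, Gclc and Gclm, and glutathione reductase, Gsr. All 10 were found by symbol among the 11235 genes of the deposited FPKM table, whose values scale fragments by transcript length and by library depth, and each gene was at 1 FPKM or more in all 9 libraries. Gstm7 was chosen by its change after ischaemia and reperfusion (I/R) relative to sham surgery, Gsta2 by its change under rapamycin relative to I/R, and Gpx2 by its change under rapamycin relative to sham. The other 7 were named by symbol, with earlier results of these data known. In the contrast that chose each gene, the Benjamini-Hochberg adjusted p from edgeR was 0.0440 for Gstm7, 0.0466 for Gsta2 and 0.0154 for Gpx2. Values under 0.05 there followed from the choice and are not evidence of a change. Those changes are therefore described without a test. The nearest value outside the 0.05 threshold was 0.0952, for Gpx2 under rapamycin relative to I/R.

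Glutathione is a tripeptide of glutamate, cysteine and glycine that serves as the main soluble thiol of animal cells. Glutamate-cysteine ligase joins glutamate to cysteine in the step that limits synthesis, and glutathione synthetase adds glycine. Peroxidases oxidise glutathione while they reduce hydrogen peroxide and lipid peroxides, glutathione reductase returns the oxidised form with NADPH, and transferases conjugate glutathione to reactive compounds. The kidney, above all its proximal tubule, takes up, breaks down and remakes large amounts of glutathione, and many of these genes are known targets of the transcription factor NRF2, which binds antioxidant response elements.

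RNA came from wild-type Sprague-Dawley rats of 6 to 8 weeks and 200 to 220 g, and all libraries carry batch 1 in the labels. The sham group (n = 3) had no ischaemia. The I/R group (n = 3) had 45 min of renal ischaemia and then reperfusion, and the I/R + rapamycin group (n = 3) had this injury and was given rapamycin, an inhibitor of mTOR complex 1. The labels conflict on the treatment: the design text has male rats, clamping of the left renal artery and intraperitoneal rapamycin at 1 mg/kg/day, whereas the sample protocols have rats of both sexes, gavage from 1 day before surgery, 1 or 2 mg/kg/day, reperfusion for 3 or 7 days, and 6 groups. Dose, route, time and sex are therefore unsettled, and none of the 6 sex-linked genes looked for has a row under its symbol. Nothing says that replicates were separate animals, so p-values measure only the spread between these samples, which may be technical.

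Total counts ranged from 44582251 to 60538627 per library, and 17335 genes were tested. The tissue label is kidney while the cell type label is renal tubular cell. The 17 proximal tubule markers summed to 7540 to 9946 FPKM in the 9 libraries. Rows were present for 6 of 6 podocyte, 8 of 8 endothelial, 7 of 8 fibroblast and 8 of 10 leukocyte markers. Every listed gene is at 1 FPKM or more in at least 8 libraries, so values above 0 follow from the listing. Transcripts of these cell types were thus present, and their share of the RNA was not tested. In bulk RNA, fewer cells of a type and less RNA per cell cannot be told apart. Some libraries stood apart within their groups: the summed FPKM of 10 immediate early and heat shock genes ranged from 190 to 1129 in sham, 123 to 562 in I/R and 112 to 140 in I/R + rapamycin, and that of 4 erythrocyte genes from 106 to 796, 419 to 1044 and 55.3 to 191. The part of these differences in the results that follow was not tested, except by leaving out libraries.

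The genes spanned about 3 orders of magnitude in level per length. Gpx3, the secreted plasma peroxidase that the proximal tubule makes, averaged 7113 FPKM and ranked 8th among all listed genes. Gclc averaged 489 FPKM, Gsta2 413 FPKM, Gpx1 365 FPKM, Gclm 243 FPKM and Gpx4 219 FPKM over the 9 libraries. Gsr followed at 59.4 FPKM, Gstm7 at 12.2 FPKM, Gstm1 at 4.92 FPKM and Gpx2 at 4.70 FPKM. Ranges over the libraries overlapped between neighbours from Gclc to Gpx4 and between Gstm1 and Gpx2, whereas Gpx3, Gsr and Gstm7 were each separated from the neighbours in this order in every library.

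**Figure D1:**
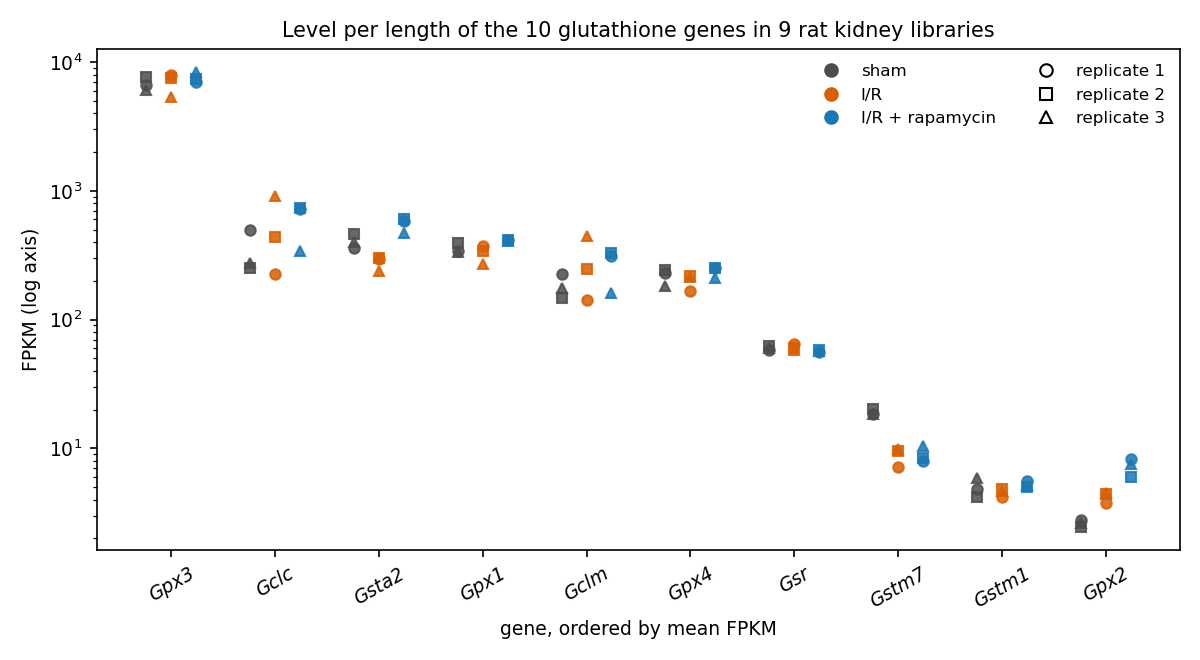
FPKM on a log axis for each of the 10 genes, ordered by mean, with 1 point per library, coloured by group and shaped by replicate number. Gpx3 lies between 5391 and 8380 FPKM and Gpx2 between 2.45 and 8.24 FPKM, and the widest vertical scatter within a group is that of Gclc and Gclm in I/R.

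The calls among these genes fell on Gstm7, Gsta2 and Gpx2. In I/R against sham 1 of the 10 genes (Gstm7) had an adjusted p under 0.05 by edgeR's quasi-likelihood test, where 0.0577% of all tested genes did. For I/R + rapamycin against I/R 1 of 10 (Gsta2) was called, with a background of 0.127%, and for I/R + rapamycin against sham 2 of 10 (Gpx2 and Gstm7) were, with a background of 0.156%. Because Gstm7, Gsta2 and Gpx2 entered through those contrasts, these counts are printed beside the background and nothing is read from them. All 3 counts fell to 0 without sham 1, without sham 2 or without I/R + rapamycin 1, and some did without other libraries. The median fitted log2 fold change of the 10 genes was -0.07, 0.27 and 0.22 in the 3 comparisons, and that of all tested genes was 0.00, 0.01 and 0.00. Fitted values were above 0 for 4, 9 and 8 of the 10 genes. Some were near 0, such as Gclm (0.00) and Gstm7 (0.07) in I/R + rapamycin against I/R. The medians and these counts include Gstm7, Gsta2 and Gpx2 in the contrasts that chose them. Nothing is read from them either. The comparisons share libraries, so their values are given side by side and not as independent results. A second test, DESeq2, is quoted below and called many more genes than edgeR. Over all genes it called 234, 702 and 567 in the 3 comparisons, where edgeR called 10, 22 and 27.

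Groups did not overlap in CPM (counts scaled to the library's total and TMM factor) for 3 of 10 genes in I/R against sham, namely Gsta2, Gstm7 and Gpx2, where 14.6% of all tested genes did not overlap. This held for 4 genes, Gsta2, Gpx2, Gpx1 and Gstm1, in I/R + rapamycin against I/R, with a background of 24.6%, and for 3 genes, Gstm7, Gpx2 and Gpx1, in I/R + rapamycin against sham, with a background of 19.3%.

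**Figure D2:**
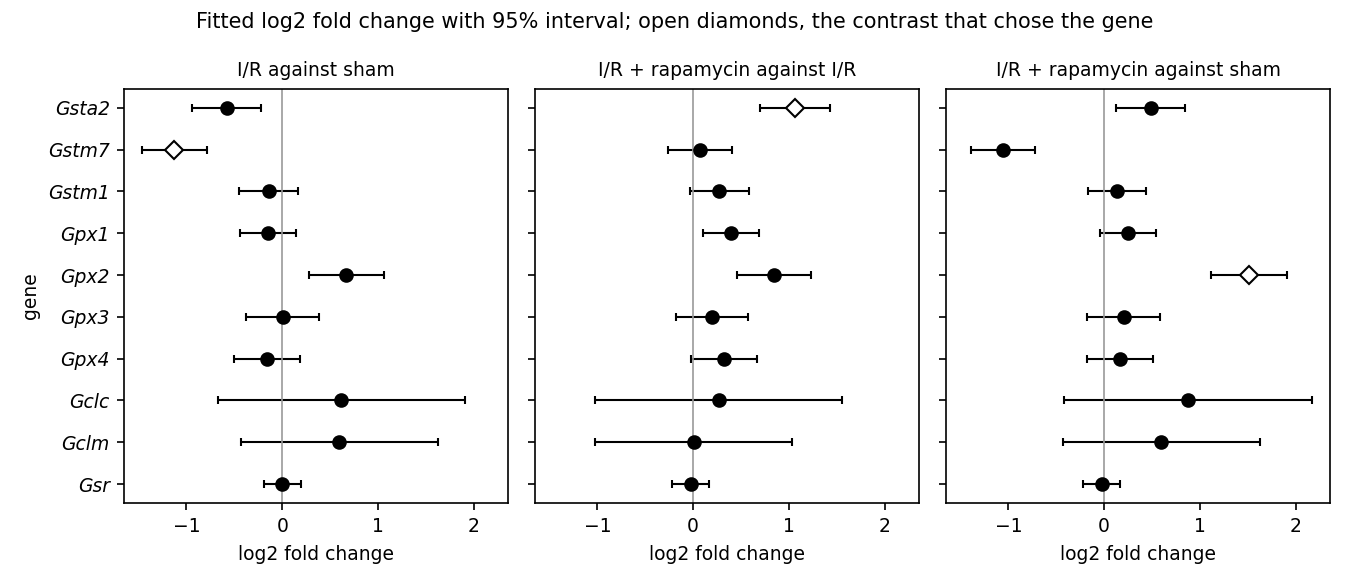
Fitted log2 fold changes from edgeR (horizontal axis) with 95% intervals for each gene (vertical axis) in the 3 comparisons, open diamonds marking the contrast that chose a gene. Gstm7 lies near -1 in both comparisons with sham and at 0.07 between the injured groups, Gpx2 is above 0 in all 3, and the intervals of Gclc and Gclm are the widest.

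Gsta2 encodes an alpha-class transferase that conjugates glutathione and also reduces lipid hydroperoxides, and it was the most abundant of the transferases among these genes. It was at 360, 461 and 401 FPKM in sham, at 295, 301 and 237 FPKM in I/R and at 583, 605 and 472 FPKM in I/R + rapamycin. The I/R libraries were the 3 lowest and the rapamycin libraries the 3 highest, so that no groups overlapped on this scale. Under rapamycin the level was 2.09-fold that in I/R, a log2 fold change of 1.06 (SE 0.16), in the contrast on which the gene was selected. In I/R against sham the fitted log2 fold change was -0.58 (SE 0.16, edgeR adjusted p = 0.298), and DESeq2 called this difference (adjusted p = 0.0270). Between I/R + rapamycin and sham it was 0.49 (SE 0.16, edgeR adjusted p = 0.236), and in CPM the lowest rapamycin library, at 1137, overlapped the highest sham library, at 1141. The rapamycin against I/R value shares its I/R libraries with the value against sham, so the low I/R level enters both.

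The 250 bases upstream of the RefSeq start of Gsta2 (chr8:88077093-88077342, build GRCr8, minus strand) are shown because the gene had the clearest separation under rapamycin among the abundant transferases, with lower case letters meaning that the searched element described later was not found.
Gsta2: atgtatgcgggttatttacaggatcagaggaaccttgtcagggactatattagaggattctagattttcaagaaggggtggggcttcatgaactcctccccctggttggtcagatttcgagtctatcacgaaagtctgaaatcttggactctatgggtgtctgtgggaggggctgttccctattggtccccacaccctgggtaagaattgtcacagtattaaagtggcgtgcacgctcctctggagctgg

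Of the 5 other alpha-class transferases with a row, Gsta1, Gsta4 and Gsta5 had the order of group means seen for Gsta2, with I/R lowest and I/R + rapamycin highest, whereas Gsta3 and Gsta6 were lowest in sham. Mean FPKM in sham, I/R and I/R + rapamycin was 11.8, 15.9 and 23.1 for Gsta3 and 12.5, 14.6 and 16.4 for Gsta6. Gsta4, whose enzyme prefers the lipid peroxidation product 4-hydroxynonenal, was at 85.4, 94.1 and 97.1 FPKM in sham, 59.6, 68.6 and 68.1 FPKM in I/R and 112, 107 and 80.8 FPKM in I/R + rapamycin. Gsta5 was at 69.1, 70.6 and 79.6 FPKM in sham, 56.8, 58.7 and 71.3 FPKM in I/R and 128, 119 and 75.0 FPKM in I/R + rapamycin. For Gsta1 the values were 196, 241 and 185 FPKM, then 190, 205 and 170 FPKM, then 256, 278 and 268 FPKM. I/R and I/R + rapamycin overlapped in FPKM for Gsta3 and Gsta6. Of all tested genes 24.6% did not overlap in CPM between these groups, in either direction. For Gsta1, Gsta4 and Gsta5 every rapamycin library lay above every I/R library in FPKM. Their log2 fold changes in I/R + rapamycin against I/R were 0.68 (SE 0.14) for Gsta4, 0.86 (SE 0.19) for Gsta5 and 0.57 (SE 0.14) for Gsta1, with edgeR adjusted p-values of 0.0993, 0.117 and 0.124. DESeq2 called all 3 there, with adjusted p-values of 0.00110, 0.00142 and 0.00289. Alpha-class genes are close paralogs whose reads the authors' counting could have divided between copies, so the split between Gsta1, Gsta2, Gsta3 and Gsta5 is uncertain.

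Over the 17 cytosolic transferases outside the 10 genes that have a row, edgeR called 0 in each comparison. At an unadjusted p under 0.05, 6 were higher and 0 lower in I/R + rapamycin against I/R, where 16.3% of all tested genes passed in either direction. Relative to sham, I/R + rapamycin had 5 higher and 0 lower, with 13.8% of all genes passing, and I/R had 0 higher and 1 lower, Gsta4, with 9.42% passing. DESeq2 called 4 in the first of these, with Gstz1, which isomerises maleylacetoacetate in tyrosine breakdown, as the fourth (adjusted p = 0.0218). It called 2 in the second, Gstz1 and Gsta3, and 1 in the third, Gsta4. Over all genes DESeq2 called 702, 567 and 234 in the same order. Gsta3 was at 14.6, 10.9 and 9.86 FPKM in sham, at 12.8, 14.6 and 20.4 FPKM in I/R and at 30.1, 22.5 and 16.8 FPKM in I/R + rapamycin (edgeR log2 fold change of 1.03, SE of 0.25, adjusted p = 0.149). Of the 3 membrane-bound transferases with a row, Mgst1, which protects membranes from lipid peroxides, had a log2 fold change of 0.35 (SE 0.11, edgeR adjusted p = 0.199) for I/R + rapamycin against I/R, and neither tool called any of them in any comparison.

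Gstm7, a mu-class transferase, was lower in both injured groups than in sham. It was at 18.4, 20.1 and 18.5 FPKM in sham, at 7.16, 9.49 and 9.79 FPKM in I/R and at 7.93, 8.35 and 10.4 FPKM in I/R + rapamycin. The lowest sham library was well above the highest injured library, and the injured groups overlapped. In I/R against sham, the contrast on which Gstm7 was selected, the level was 0.458-fold that in sham (log2 fold change -1.13, SE 0.15). Relative to sham, Gstm7 in I/R + rapamycin fell by 1.06 on the log2 scale (SE 0.15, edgeR adjusted p = 0.0295), lower in 3 of 3 libraries. The same sham libraries entered the contrast that chose Gstm7, so neither this value nor its p is independent of that choice. Between the injured groups the log2 fold change was 0.07, with a 95% interval from -0.27 to 0.41 (edgeR adjusted p = 0.859). The call against sham was lost without sham 1, sham 2, I/R 2, I/R + rapamycin 1 or I/R + rapamycin 2, with adjusted p-values of 0.0832, 0.0955, 0.0558, 0.151 and 0.185 and log2 fold changes from -1.10 to -0.99.

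Other transcripts were also lower in both injured groups in these libraries. The summed level of 6 podocyte markers was 154 to 163 FPKM in sham, 102 to 131 FPKM in I/R and 87.4 to 130.0 FPKM in I/R + rapamycin, and that of 10 collecting duct markers was 543 to 569, 433 to 525 and 432 to 508 FPKM. Neither of these sums overlapped between sham and the injured groups. Those of proximal tubule, thick limb, endothelial, fibroblast and leukocyte markers overlapped sham in both. Among single tested genes, 14.6% did not overlap in CPM in I/R against sham and 19.3% in I/R + rapamycin against sham. In the latter comparison 3 of the 10 collecting duct markers had a fitted value above 0. No marker was at 0, and the part of podocytes and collecting duct in the Gstm7 values was not tested. The 5 genes most like Gstm7 among 10371 candidates, by Pearson's r of log2 CPM over the 9 libraries, were Pltp (0.97), Frzb (0.94), LOC100911413 (0.93), Adck5 (0.93) and Gp2 (0.92).

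The upstream sequence of Gstm7 (chr2:198260320-198260569, GRCr8, minus strand) is shown as that of the gene with the largest loss among the 10, with a match to the antioxidant response element core in capitals.
Gstm7: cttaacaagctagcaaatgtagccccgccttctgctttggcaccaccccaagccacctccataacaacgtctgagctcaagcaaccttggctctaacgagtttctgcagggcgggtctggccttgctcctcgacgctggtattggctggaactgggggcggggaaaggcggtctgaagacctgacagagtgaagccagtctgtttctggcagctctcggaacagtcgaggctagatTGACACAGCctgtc

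Gstm1, the best known mu-class enzyme, which detoxifies electrophiles, was low per length in these kidneys. The implied length, known only up to a constant, was 3720 for Gstm1 and 1449 for Gstm7. In sham, I/R and I/R + rapamycin Gstm7 averaged 27.4, 12.5 and 13.2 CPM, and Gstm1 averaged 18.3, 16.6 and 20.0 CPM. Its levels were 4.82, 4.15 and 5.88 FPKM in sham, 4.20, 4.82 and 4.62 FPKM in I/R and 5.57, 4.98 and 5.21 FPKM in I/R + rapamycin. Sham overlapped both other groups, and the rapamycin libraries lay just above the I/R libraries. The log2 fold changes were -0.14 (95% interval -0.45 to 0.17) in I/R against sham, 0.27 (-0.03 to 0.58) for I/R + rapamycin against I/R and 0.13 (-0.17 to 0.44) in I/R + rapamycin against sham, with edgeR adjusted p-values from 0.358 to 0.802. Mu-class genes are also close paralogs, and how the authors' counting treated reads shared between them is not given in the sources used here.

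**Figure D3:**
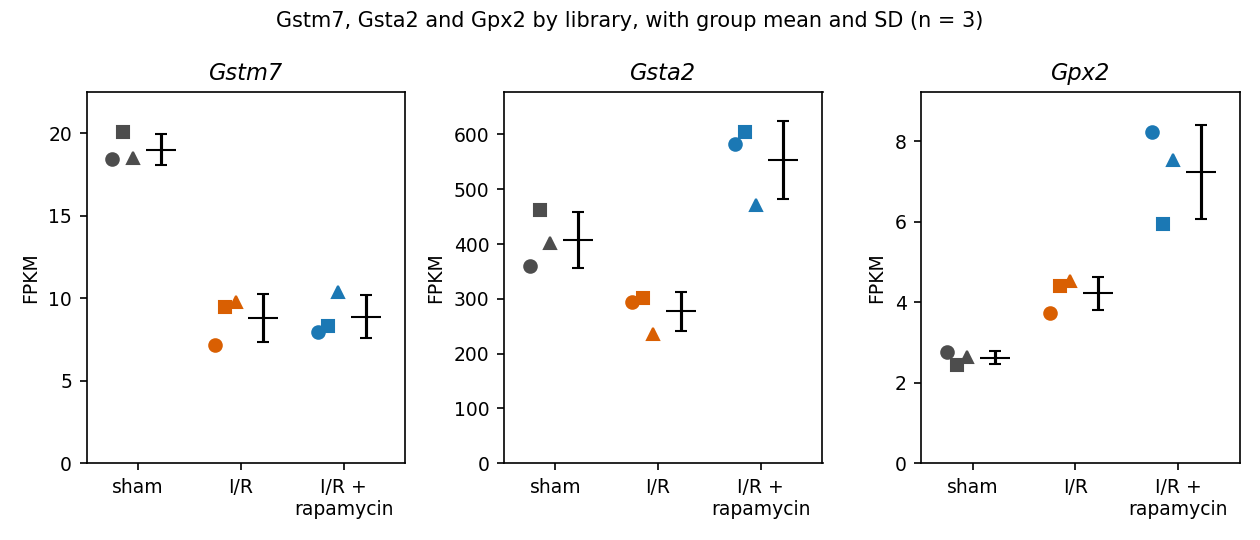
FPKM of Gstm7, Gsta2 and Gpx2 by group, 1 point per library shaped by replicate number, with the group mean and SD (n = 3) beside the points and each axis starting at 0. Gstm7 is at 18.4 to 20.1 FPKM in sham and at most 10.4 FPKM in the injured groups, Gsta2 has its lowest libraries in I/R, and Gpx2 is lowest in sham and highest in I/R + rapamycin.

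Gpx2 encodes the gastrointestinal peroxidase, a selenoprotein of epithelial cells and a known NRF2 target. It was at 2.77, 2.45 and 2.64 FPKM in sham, at 3.74, 4.39 and 4.53 FPKM in I/R and at 8.24, 5.96 and 7.54 FPKM in I/R + rapamycin. No groups overlapped: sham was lowest, I/R intermediate and I/R + rapamycin highest. Relative to sham, the contrast on which Gpx2 was selected, the level under rapamycin was 2.85-fold higher (log2 fold change 1.51, SE 0.18). Against I/R the fitted log2 fold change under rapamycin was 0.84 (SE 0.18, edgeR adjusted p = 0.0952), higher in 3 of 3 libraries, and DESeq2 called it (adjusted p = 0.00242). In I/R against sham it was 0.67 (SE 0.18, edgeR adjusted p = 0.286), again higher in 3 of 3 libraries. The value against I/R reuses the rapamycin libraries of the contrast that chose Gpx2, and the value in I/R against sham reuses its sham libraries. Neither is therefore independent of that choice. The Gpx2 values rest on 146 to 447 reads per library, the fewest among the 10 genes. The only urothelial marker with a row, of 9 looked for, was Krt7. It was at 57.3 to 66.0 FPKM in sham, 44.6 to 59.4 FPKM in I/R and 53.1 to 66.1 FPKM in I/R + rapamycin, and all groups overlapped. The part of urothelium in the Gpx2 values was not tested. The 5 genes most like Gpx2 by r of log2 CPM over the 9 libraries were Cpped1 (0.98), Rbck1 (0.96), Cyp39a1 (0.96), Gsk3a (0.96) and Necab1 (0.96), and among those most like Gsta2 were Gtf2h4 (0.97), Llph-ps1 (0.97), Cdk2ap2 (0.96) and Mrpl36 (0.96).

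The upstream sequence of Gpx2 (chr6:101230034-101230283, GRCr8, minus strand) is shown for the gene with the largest rise, again with the element core in capitals, which here lies on the opposite strand.
Gpx2: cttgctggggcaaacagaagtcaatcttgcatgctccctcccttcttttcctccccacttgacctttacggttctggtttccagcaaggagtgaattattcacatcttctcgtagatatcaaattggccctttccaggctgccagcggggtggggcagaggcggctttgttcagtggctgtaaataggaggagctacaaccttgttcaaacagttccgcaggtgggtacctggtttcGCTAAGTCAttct

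Gpx1, the cytosolic selenoperoxidase of nearly all cells, was at 340, 393 and 337 FPKM in sham, at 374, 339 and 270 FPKM in I/R and at 412, 414 and 406 FPKM in I/R + rapamycin. The rapamycin libraries were within 1.02-fold of each other and above all 6 others, while sham and I/R overlapped. The log2 fold change was 0.39 in I/R + rapamycin against I/R (SE 0.13, 95% interval 0.10 to 0.69) and 0.25 in I/R + rapamycin against sham (SE 0.13, interval -0.05 to 0.54). Neither difference was called by edgeR (adjusted p = 0.205 and 0.446) or by DESeq2. In I/R against sham the log2 fold change was -0.15 (interval -0.44 to 0.15). When the trend with transcript length was removed, the 3 values were 0.15, 0.16 and 0.01 in the order just given. Gpx1, Gpx2 and Gpx4 are short transcripts, with implied lengths, known only up to a constant, of 1016, 1138 and 1285 against a median of 3202 over all listed genes.

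Gpx3 was at 6664, 7646 and 6090 FPKM in sham, at 7931, 7489 and 5391 FPKM in I/R and at 7062, 7366 and 8380 FPKM in I/R + rapamycin. It took 1.63% to 2.57% of all counts in a library, and all groups overlapped. The log2 fold changes were 0.01 (95% interval -0.37 to 0.39) in I/R against sham, 0.20 (-0.18 to 0.58) for I/R + rapamycin against I/R and 0.20 (-0.18 to 0.58) in I/R + rapamycin against sham. The file lists the Gpx3 row as a long noncoding transcript type with 3 transcripts, and which of these the reads came from was not tested.

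Gpx4, which reduces phospholipid hydroperoxides in membranes and so restrains ferroptosis, was at 231, 242 and 183 FPKM in sham, at 166, 216 and 214 FPKM in I/R and at 250, 251 and 211 FPKM in I/R + rapamycin. In FPKM and in CPM the groups overlapped. The log2 fold changes were -0.16 (95% interval -0.50 to 0.19), 0.32 (-0.02 to 0.67) and 0.17 (-0.18 to 0.51) in the same order of comparisons, with edgeR adjusted p-values of 0.803, 0.333 and 0.681. A change of more than 1.6-fold in Gpx4 in any of the 3 comparisons lies outside these intervals. With the length trend removed the values were -0.044, 0.12 and 0.073.

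Around the peroxidases, edgeR called 0 of 12 other peroxidases, peroxiredoxins, catalase and superoxide dismutases with a row in every comparison. Prdx1 and Sod1, both lower in I/R than in sham, passed an unadjusted p of 0.05, and Sod1 was the 1 such gene between I/R + rapamycin and I/R, where it was higher. Among all tested genes 9.42% and 16.3% passed in these comparisons, in either direction. Sod1, the cytosolic superoxide dismutase, was at 189, 223 and 176 FPKM in sham, 156, 173 and 150 FPKM in I/R and 215, 220 and 186 FPKM in I/R + rapamycin. Its log2 fold change under rapamycin against I/R was 0.44 (SE 0.14, edgeR adjusted p = 0.179), and DESeq2 called it (adjusted p = 0.0376). Against sham, I/R + rapamycin had 0 of the 12 at an unadjusted p under 0.05, where 13.8% of all tested genes passed. DESeq2 made 0 calls in that comparison and 0 in I/R against sham.

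Peroxidases of the Gpx1 to Gpx4 group need selenocysteine, and edgeR called 0 of 16 genes of selenoprotein synthesis and selenium supply in any comparison. At an unadjusted p under 0.05, 4 were higher and 0 lower in I/R + rapamycin against I/R, 3 higher and 1 lower in I/R + rapamycin against sham, and 0 higher and 2 lower in I/R against sham. Among all tested genes 16.3%, 13.8% and 9.42% passed in these comparisons, in either direction. Trnau1ap, which associates with the selenocysteine tRNA, was at 21.2, 21.4 and 18.6 FPKM in sham, 16.3, 18.0 and 17.0 FPKM in I/R and 23.7, 20.7 and 21.7 FPKM in I/R + rapamycin. DESeq2 called it in I/R + rapamycin against I/R (log2 fold change 0.43, adjusted p = 0.0151). DESeq2 also called the elongation factor Eefsec lower in I/R than in sham (adjusted p = 0.0277) and Sephs2, which makes the selenium donor, higher in I/R + rapamycin than in sham (adjusted p = 0.0208).

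Gclc and Gclm, the catalytic and modifier subunits of glutamate-cysteine ligase, varied more between libraries of a group than nearly all other genes. Gclc was at 498, 251 and 274 FPKM in sham, at 228, 439 and 910 FPKM in I/R and at 723, 736 and 339 FPKM in I/R + rapamycin. Gclm was at 227, 148 and 176 FPKM in sham, at 142, 248 and 449 FPKM in I/R and at 312, 327 and 160 FPKM in I/R + rapamycin. In both genes I/R 1 was the lowest library of all and I/R 3 the highest, a range of 4.0-fold for Gclc and 3.16-fold for Gclm within 1 group. The SD of log2 values within groups was 0.76 for Gclc and 0.62 for Gclm, above that of 98.7% and 97.8% of the 11232 named genes, whose median was 0.16.

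All groups overlapped for both subunits. The log2 fold changes of Gclc were 0.61 (95% interval -0.67 to 1.90) in I/R against sham, 0.26 (-1.02 to 1.55) for I/R + rapamycin against I/R and 0.88 (-0.41 to 2.17) in I/R + rapamycin against sham. Those of Gclm were 0.59 (-0.44 to 1.62), 0.00 (-1.02 to 1.03) and 0.60 (-0.43 to 1.63). No edgeR adjusted p for either gene was under 0.53, and intervals of this width include changes of 2-fold in some direction. Without I/R 3 the value of Gclc in I/R against sham was -0.02, and that of Gclm was 0.096, and without I/R 1 they were 0.98 and 0.92. The fitted difference therefore rested on single I/R libraries in both genes.

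The subunits moved together from library to library. Over the 9 libraries the correlation of log2 CPM of Gclc with Gclm was 0.97 (Pearson's r, exact permutation p = 4.96e-05, Benjamini-Hochberg adjusted p = 0.00223 over 45 pairs of the 10 genes). Spearman's rho was 0.97 (exact permutation p = 0.000165, adjusted p = 0.00744). Both genes were listed with earlier results of these data known. Without I/R 1 and I/R 3, the libraries farthest from the median, r was 0.96, and after subtraction of group means it was 0.98. The ratio of Gclc to Gclm in FPKM nevertheless differed between libraries, from 1.56 in sham 3 to 2.32 in I/R + rapamycin 1.

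The next highest r of the 45 pairs was that of Gsta2 with Gpx1, at 0.90 with a rho of 0.83. It is given as a description, because Gsta2 was chosen by values of the same libraries. Its r was 0.80 without I/R 3 and I/R + rapamycin 2, and 0.82 after subtraction of group means.

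The upstream sequences of both ligase subunits are shown because the genes moved together while only Gclm holds the element core within this window (capitals, opposite strand). Gclc lies at chr8:87510226-87510475 and Gclm at chr2:213031885-213032134, both on the plus strand of GRCr8.
Gclc: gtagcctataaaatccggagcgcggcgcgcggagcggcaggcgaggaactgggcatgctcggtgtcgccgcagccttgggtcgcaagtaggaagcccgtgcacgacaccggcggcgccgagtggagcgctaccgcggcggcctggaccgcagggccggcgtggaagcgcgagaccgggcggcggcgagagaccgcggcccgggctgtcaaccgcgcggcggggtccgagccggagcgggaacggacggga
Gclm: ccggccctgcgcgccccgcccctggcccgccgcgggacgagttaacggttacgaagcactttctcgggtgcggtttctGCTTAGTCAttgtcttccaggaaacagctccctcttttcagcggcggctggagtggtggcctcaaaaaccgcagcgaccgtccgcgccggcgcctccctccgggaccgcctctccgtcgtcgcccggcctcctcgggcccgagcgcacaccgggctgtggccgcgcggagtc

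Some other genes of glutathione supply had a like library order, and those named here were chosen after their values were seen. Gss, the synthetase of the second step, was at 83.7, 59.9 and 69.8 FPKM in sham, at 55.4, 93.0 and 150.3 FPKM in I/R and at 153, 133 and 66.7 FPKM in I/R + rapamycin. Cth, which makes cysteine from cystathionine, was at 131, 114 and 118 FPKM in sham, at 128, 158 and 247 FPKM in I/R and at 264, 255 and 153 FPKM in I/R + rapamycin. Slc3a1, the heavy subunit of cystine transport in the proximal tubule, was at 681, 634 and 806 FPKM, then 481, 880 and 1330 FPKM, then 986, 932 and 624 FPKM. Its partner subunit gene Slc7a13, a marker of the proximal straight tubule, was at 274, 121 and 151 FPKM, then 139, 280 and 662 FPKM, then 596, 532 and 192 FPKM. In all 4, as in Gclc and Gclm, I/R 3 was the highest of the I/R libraries and I/R + rapamycin 3 the lowest of the rapamycin libraries. Of the 16 listed genes of glutathione supply and breakdown with a row, 8 had this order and 8 did not, among the latter Cbs, Slc3a2 and Slc7a9, and 16.1% of all genes in the FPKM table had it.

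The gene most like Gclc among 10371 candidates was Slc7a13, with an r of 0.99 of log2 CPM over the 9 libraries, followed by Ly6i (0.99), Aspg (0.99), B3galt5 (0.98) and Slco1a3 (0.98). The whole list of 17 proximal tubule markers, of which Slc7a13 is 1, varied far less, from 7540 to 9257 FPKM in sham, 8484 to 9946 FPKM in I/R and 7899 to 8982 FPKM in I/R + rapamycin. Whether the libraries held different shares of the straight segment was not tested. The stress gene Fos and the globin gene Hba-a1, which vary within groups as well, had an r of -0.16 and -0.22 with Gclc in log2 FPKM over the 9 libraries, given as a description.

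**Figure D4:**
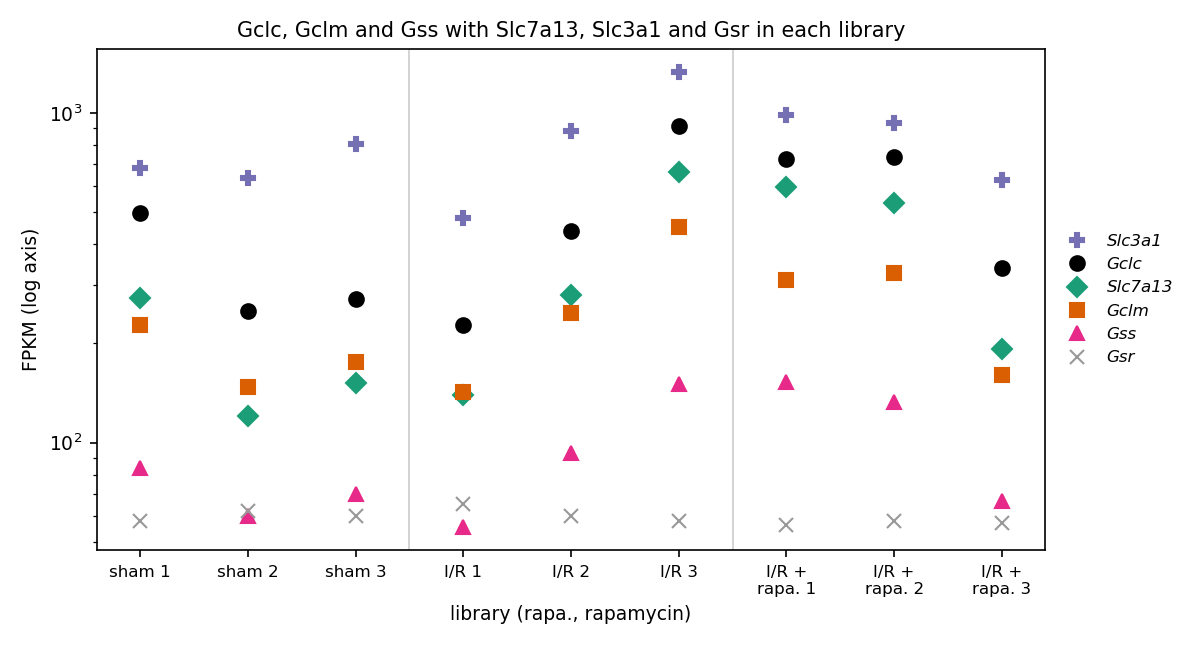
FPKM on a log axis for Gclc, Gclm, Gss, Slc7a13, Slc3a1 and Gsr in each of the 9 libraries, with vertical lines between the groups. The first 5 genes share their high libraries (I/R 3, I/R + rapamycin 1 and I/R + rapamycin 2), and Gsr stays between 56.2 and 65.0 FPKM.

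Of 16 other genes of glutathione synthesis, precursor supply and breakdown with a row, edgeR called 0 in each comparison. At an unadjusted p under 0.05 there were 0 higher and 1 lower in I/R against sham, 1 higher and 0 lower for I/R + rapamycin against I/R, and 2 higher and 0 lower in I/R + rapamycin against sham. The shares of all tested genes that passed there, in either direction, were 9.42%, 16.3% and 13.8%. Ggct, gamma-glutamylcyclotransferase, which acts on gamma-glutamyl amino acids in glutathione turnover, was the gene in the first and second. It was at 186, 180 and 165 FPKM in sham, at 110, 116 and 150 FPKM in I/R and at 179, 178 and 146 FPKM in I/R + rapamycin, and DESeq2 called it in I/R against sham (log2 fold change -0.52, adjusted p = 0.0294) and in I/R + rapamycin against I/R (0.49, adjusted p = 0.0219). The genes in the third were Cth (edgeR log2 fold change 0.94, SE 0.27, adjusted p = 0.197), which DESeq2 called, and Mat2a, which makes S-adenosylmethionine (0.53, SE 0.20, adjusted p = 0.273). Gss had log2 fold changes of 0.47 (SE 0.42), 0.31 (SE 0.42) and 0.78 (SE 0.42) in the order of comparisons used above.

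Gsr, which regenerates glutathione from its oxidised form, was the steadiest of the 10 genes. It was at 57.8, 62.2 and 60.0 FPKM in sham, at 65.0, 59.9 and 57.9 FPKM in I/R and at 56.2, 58.0 and 57.2 FPKM in I/R + rapamycin. All 9 libraries lay within 1.16-fold of each other, and the groups overlapped in CPM. The log2 fold changes were -0.00 (95% interval -0.19 to 0.19), -0.02 (-0.22 to 0.17) and -0.03 (-0.22 to 0.17). Only 6.95% of named genes had a smaller SD within groups.

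Of 19 genes of NADPH supply, glutaredoxins, thioredoxins and glyoxalase, which support reduced glutathione and related thiols, both edgeR and DESeq2 called 0 in each comparison. At an unadjusted p under 0.05 there were 2 higher and 1 lower in I/R against sham, 2 higher and 1 lower for I/R + rapamycin against I/R, and 1 higher and 1 lower in I/R + rapamycin against sham. The shares of all tested genes that passed there, in either direction, were 9.42%, 16.3% and 13.8%. Glo1, which removes methylglyoxal as a glutathione adduct, was at 42.5, 50.7 and 47.7 FPKM in sham and at 36.4, 39.5 and 40.0 FPKM in I/R, with an edgeR log2 fold change of -0.30 (SE 0.10, adjusted p = 0.380). Glrx5, a mitochondrial glutaredoxin of iron-sulphur cluster assembly, had a log2 fold change of 0.37 (SE 0.11, edgeR adjusted p = 0.172) in I/R + rapamycin against I/R.

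Genes of the NRF2 pathway and its targets outside glutathione did not share 1 direction. This list holds NRF2 itself and regulators such as Keap1 and Bach1 as well as targets. Of 23 rows for the 22 symbols of the NRF2 list with a row, edgeR called 0 in each comparison. At an unadjusted p under 0.05 were 1 higher and 0 lower, 2 higher and 2 lower, and 1 higher and 4 lower. The order is I/R against sham, I/R + rapamycin against I/R, and I/R + rapamycin against sham. Among all tested genes 9.42%, 16.3% and 13.8% passed in these comparisons, in either direction. The median log2 fold changes of the 23 rows were 0.02, -0.06 and 0.01. Nfe2l2, which encodes NRF2, was at 51.3, 56.9 and 49.3 FPKM in sham, 54.0, 51.0 and 48.5 FPKM in I/R and 48.3, 47.0 and 46.0 FPKM in I/R + rapamycin, and its inhibitor Keap1 had log2 fold changes of 0.02, 0.06 and 0.08. Bach1, which represses the same elements, was at 6.27, 4.48 and 6.69 FPKM in sham, 8.13, 7.01 and 7.64 FPKM in I/R and 4.45, 5.10 and 5.77 FPKM in I/R + rapamycin. Its log2 fold change under rapamycin against I/R was -0.50 (SE 0.14, edgeR adjusted p = 0.156), and DESeq2 called it (adjusted p = 0.0416). Abcc1, an exporter of glutathione conjugates, was at 3.54, 2.91 and 4.01 FPKM in I/R and at 1.81, 2.33 and 2.36 FPKM in I/R + rapamycin, and DESeq2 called it in that contrast (log2 fold change -0.61, adjusted p = 0.00975) and against sham (-0.68, adjusted p = 0.00309). In I/R + rapamycin against I/R, DESeq2 also called 1 row higher, of Ftl1 (log2 fold change 0.28, adjusted p = 0.0494). Slc7a11 and Nqo1 are without a row under their symbols in these tables and are not analysed here.

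The antioxidant response element core was searched as TGACNNNGC on both strands of the 250 bases before each RefSeq start, leaving out transcribed bases. Of the 10 genes, 9 matched an entry by symbol, and 3 of them held the letters: Gstm7 at 14 to 6 bases before the start on the same strand, Gpx2 at 13 to 5 bases before it on the opposite strand, and Gclm at 172 to 164 bases before it on the opposite strand. Of all 33469 entries of this length, 10.1% held the core. Gsta2, Gstm1, Gpx1, Gpx3, Gpx4 and Gclc did not hold these letters in this window, which says nothing of elements farther away. The genes with the core moved differently: Gpx2 was highest under rapamycin, Gstm7 was lower in both injured groups, and Gclm overlapped between all groups. The guanine and cytosine content of the windows was 50.4% for Gpx2, 56.8% for Gstm7, 70.4% for Gclm and 74.8% for Gclc, against a median of 51.2% over all entries.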

How the data were processed

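Poly(A) RNA of 9 rat kidney libraries was read from both fragment ends, per the labels' protocols. The authors deposited raw read counts for 30454 gene IDs and FPKM values for 11235 genes, per the file headers; FPKM is scaled by length and depth. Tools listed in the submitters' processing notes are StringTie, HISAT2, cutadapt and DESeq2, with Rnor_6.0 and no versions; strand and counting rules are not stated in the sources used here. Coordinates in the files do not settle the build and are not printed.

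The 10 genes and all gene lists were chosen with earlier results of these data known. Every member was described in every comparison; of each list, called genes and up to 3 with the smallest p were named, except where said. A gene named by the likeness rule is not reported here. Counts were tested in edgeR 4.0.16 (R 4.3.3) by quasi-likelihood, with TMM factors, the default filter (17335 genes), all 9 libraries in 1 fit, no covariates and Benjamini-Hochberg adjustment, called under 0.05. SE is the log2 fold change over the square root of F. Groups follow the labels. Depth was 44582251 to 60538627 counts, and Gpx2 had the fewest reads of the 10 genes, at 146 to 447. Libraries of a group differed by a chi-square of 33.7 to 133 per degree of freedom, so none was a copy. Permutation tests (two-sided) used SciPy 1.17.1. Alternatives were DESeq2 1.42.0, other scaling and filters, a fit of 6 libraries, a replicate block, limma 3.58.1 on log2 FPKM with pseudocounts of 1 and 0.1, a length correction, a 0.01 threshold and left-out libraries. The edgeR script was tested on simulated data. Promoter sequences are RefSeq's, build GRCr8.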

Additional observations from a re-analysis of the deposited data

How the results depend on the processing

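The number of the 10 genes called was 1, 1 and 2 in I/R against sham, I/R + rapamycin against I/R and I/R + rapamycin against sham. DESeq2 gave 2, 2 and 2, adding Gsta2 and Gpx2 in the first and second. A fit of the 6 libraries compared gave 0, 0 and 2, an adjusted p under 0.01 gave 0 in each, and leaving I/R 1 and sham 3 out together gave 1, 0 and 2; fewer libraries or a stricter threshold are part of these settings. Other scaling, other filters, limma on FPKM and the length correction gave 1, 1 and 2. Leaving out 1 library gave 0 to 1, 0 to 1 and 0 to 2. The first count was 0 except without I/R 1 or I/R + rapamycin 3, the second 0 except without sham 3 or I/R + rapamycin 3, and the third 0 without sham 1, sham 2 or I/R + rapamycin 1 and 1 without I/R 2 or I/R + rapamycin 2. Over all these alternatives Gstm7 in I/R against sham stayed between -1.22 and -0.98, Gsta2 in I/R + rapamycin against I/R between 0.95 and 1.18, and Gpx2 in I/R + rapamycin against sham between 1.18 and 1.62 (log2). Over all tested genes, 10, 22 and 27 were called by edgeR and 234, 702 and 567 by DESeq2; leaving out 1 library gave 0 to 36, 0 to 47 and 3 to 47.

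Replicate numbers did not consistently pair the libraries: correlations of same-numbered deviations ranged from -0.21 to 0.14, with 2 of 9 above a limit of 0.1. The labels give only a number. With the replicate block 0 of the 10 genes were called in each comparison, and 1, 1 and 7 of all tested genes.

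Of 630 refitted log2 fold changes of the 10 genes, 564 kept direction and call, 33 lost the call, 2 gained it and 31 changed sign. In I/R against sham, Gpx3 was -0.0039 with upper-quartile factors, Gsr 0.0209 and 0.0212 with limma at pseudocounts of 1 and 0.1, and Gpx1 0.012 with the length correction. Leaving out 1 library put Gpx3 between -0.088 and 0.17, Gsr between -0.049 and 0.047, Gstm1 between -0.24 and 0.0062, Gclc between -0.018 and 0.98, and Gclm between 0.096 and 0.92. Leaving I/R 1 and sham 3 out together gave Gstm1 0.078 and Gpx3 -0.15. In I/R + rapamycin against I/R, Gclm was -0.0016 with no filter, -0.16 with the length correction and -0.33 without I/R 1 and sham 3, Gstm7 -0.10 and -0.075 in the last 2, and Gclc -0.11 in the last. Leaving out 1 library put Gclm between -0.33 and 0.50, Gstm7 between -0.076 and 0.16 and Gclc between -0.11 and 0.90. In I/R + rapamycin against sham, leaving out 1 library put Gsr between -0.077 and 0.022. The cause of these changes was not tested.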
